A study of Mus musculus with 6 samples.

Results

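The 40 genes described here encode the contractile apparatus of striated muscle and the proteins that release, take up and buffer its calcium. They were picked by gene symbol, and each of the 40 symbols matched 1 of the 35275 rows of the expression table. RNA was sequenced in bulk from excised tongues of 2 groups of mice, Aim2 KO (Aim2-/-) and wild type, with 3 libraries per group numbered 1 to 3. All 6 libraries came from mice whose drinking water held 4NQO (4-nitroquinoline 1-oxide), a DNA-damaging carcinogen that produces squamous lesions in the mouth, at 100 µg/ml for 20 weeks. No untreated tongue was among the samples used here. The sources used here do not give the strain, age, sex or the design of the Aim2 allele. Nor do they say whether each library came from its own animal, so p-values measure the spread between libraries, which may be technical. The library names of each group share a number of their own, whose meaning is not given. Genotype cannot be told apart from whatever that number denotes. Levels are FPKM, reads scaled to gene length and to library depth. A log2 difference is the mean of Aim2 KO less the mean of wild type, taken after adding 1 FPKM and converting to log2, so that differences of low genes come out too small.

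The tongue is mostly skeletal muscle under a keratinised epithelium. In a sarcomere, thin filaments of actin, tropomyosin and troponin slide along thick filaments of myosin, and the Z disc and the M band hold the filaments in register. Contraction starts when a voltage sensor in the cell membrane opens the ryanodine receptor, calcium leaves the sarcoplasmic reticulum and binds troponin C, and it ends when a calcium pump returns the calcium to the store. Most of these proteins exist as fast and slow or cardiac isoforms from separate genes, so their ratios describe the fibres of a muscle. Rodent tongue is known as a fast muscle.

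The libraries held 21959204 to 25369400 reads, which follow exactly from the FPKM values and gene lengths. Aim2, which encodes a cytosolic DNA sensor, was read as a check of the labels. Aim2 KO replicates 1 to 3 held 3, 4 and 10 of its reads (0.0469, 0.0564 and 0.160 FPKM). The wild type replicates held 14, 25 and 30 (0.201, 0.363 and 0.417 FPKM). This order goes with the group labels, but counts this low cannot check the label of each single library. One library stands apart for the muscle genes. The 40 genes took 1.95% of all reads in Aim2 KO replicate 1 and 3.22% to 3.89% in the other 5 libraries. Results are therefore given with and without Aim2 KO replicate 1. In bulk tissue, fewer muscle fibres and less muscle RNA per fibre cannot be told apart. Genes of the mitochondrial genome took 4.02% of its reads, against 5.39% to 5.98% elsewhere.

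No member differed between the genotypes by the test across all genes. Of the 40 members, 35 had a mean of at least 1 FPKM and were tested, and the other 5 (Tnni1, Tnnc1, Tnnc2, Myl2 and Myl3) lay below that level in all 6 libraries. With limma and Benjamini-Hochberg adjustment over the 12144 genes tested, 0 of the 35 passed an adjusted p of 0.05, against a background of 0.00823% of all genes called. The smallest adjusted p of a member was 0.9998, and 0 members had an unadjusted p under 0.05, also with limma's voom on the reads. The log2 differences ran from -0.51 to 0.12 with a median of -0.23, beside a median of 0.02 over all genes tested. They were negative for 32 members and positive for Pvalb, Tpm3 and Atp2a2, where Atp2a2 turned negative with median-of-ratios scaling and with voom. The 3 Aim2 KO values lay above all wild type values for 0 members and below them for 0 members, where the background over all genes was 4.98% higher and 1.48% lower.

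**Figure D1:**
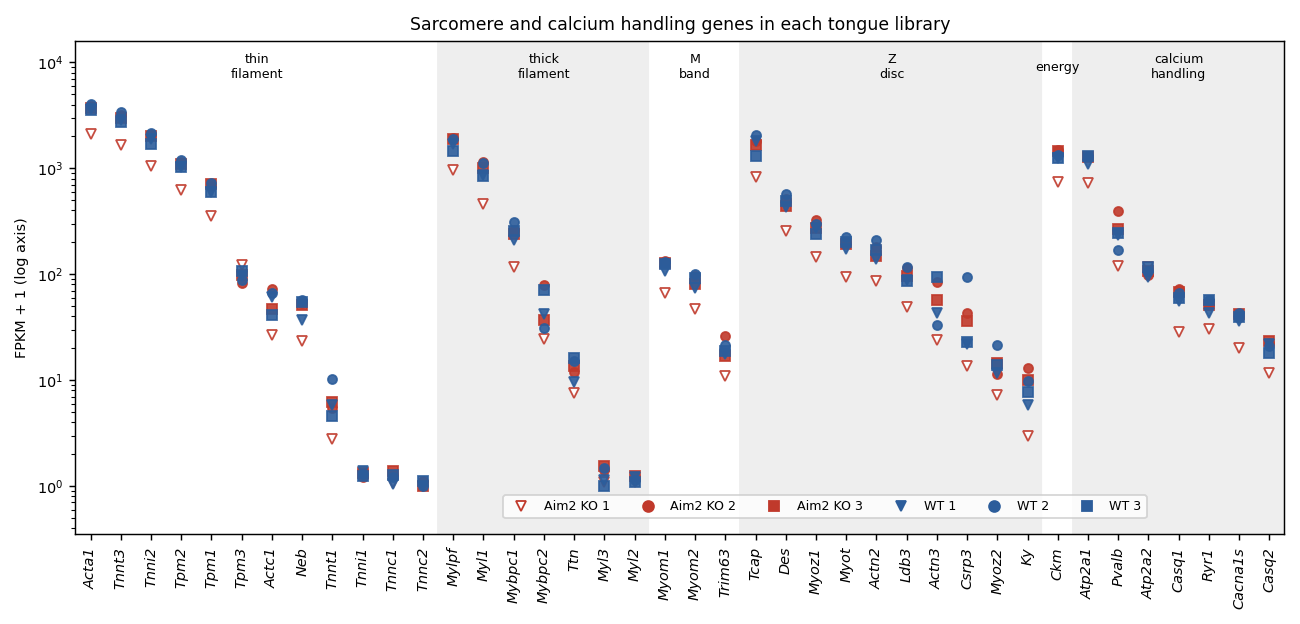
Level of the 40 genes in each library, as FPKM + 1 on a log axis, grouped by role and ordered by level. Each symbol is 1 library; the open triangles of Aim2 KO replicate 1 lie below the other 5 libraries for 33 of the 35 tested genes.

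Among the thin filament genes, skeletal muscle actin was the most abundant, and the fast troponins T and I lay above the tropomyosins in every library. Acta1, skeletal muscle actin and the highest member, was at 2111, 3863 and 3718 FPKM in Aim2 KO replicates 1 to 3 and at 3605, 4082 and 3558 FPKM in the wild type replicates (log2 difference -0.26, SE 0.30, limma adjusted p = 0.9998). Aim2 KO replicate 1 lay far below the rest, and the other 2 Aim2 KO libraries lay within the wild type range. Tpm2, the tropomyosin shared by fast and slow fibres, was at 627, 1153 and 1093 FPKM against 1019, 1208 and 1035 FPKM. Tpm1, the alpha tropomyosin, was at 355, 683 and 705 FPKM against 601, 717 and 595 FPKM. Both repeat the order seen for actin, with 1 low Aim2 KO library. Tpm3, whose products include the slow-fibre tropomyosin and a tropomyosin found in most non-muscle cells, did not: it was at 121, 82.1 and 97.8 FPKM against 96.05, 87.6 and 107 FPKM. Here Aim2 KO replicate 1 was the highest of the 6 libraries.

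Of the troponins, the fast T and I subunits were abundant. Tnnt3, which anchors the troponin complex to tropomyosin in fast fibres, was at 1665, 3192 and 2995 FPKM in Aim2 KO and at 2841, 3386 and 2709 FPKM in wild type. Tnni2, the fast inhibitory subunit, was at 1059.9, 2063 and 2015 FPKM against 1890.1, 2154 and 1677 FPKM. The slow counterparts were close to absent, with Tnnt1 at 1.76, 4.496 and 5.203 FPKM against 4.802, 9.22 and 3.57 FPKM, and Tnni1 between 0.204 and 0.397 FPKM in all libraries. Tnnt1 was the member with the most negative difference (-0.51, SE 0.38, limma adjusted p = 0.9998), and its highest value, in wild type replicate 2, was 2.58 times the lowest wild type value.

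Troponin C, the subunit that binds calcium, was nearly unread in either isoform. Tnnc2, the fast isoform, had 2 reads in Aim2 KO replicate 2, 2 reads in wild type replicate 3 and 0 reads in the other 4 libraries, where 3 reads, the limit that a count of 0 allows, would be 0.174 to 0.195 FPKM. Tnnc1, the slow and cardiac isoform, had 12 reads over the 3 Aim2 KO libraries and 10 reads over the 3 wild type libraries. These limits cover counting error only. In GENCODE M21, 74% of the exon bases of Tnnc2 (chromosome 2, 164777161 to 164779967, minus strand) also lie in exons of Ube2c on the plus strand, the largest such share among the 40 members. Ube2c, a ubiquitin-conjugating enzyme of mitosis named here because of this overlap, was at 19.9, 9.95 and 11.8 FPKM in Aim2 KO and 11.8, 9.83 and 13.96 FPKM in wild type. The sources used here do not say how reads in overlapping genes were counted, so the part of this overlap in the Tnnc2 value was not tested, and the level of Tnnc2 is uncertain. Of the other members, Atp2a1 had 21.9% of its exon bases in exons of an opposite-strand gene, and the rest had at most 20%.

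Actc1 and Neb completed the thin filament. Actc1, the cardiac actin that fetal skeletal muscle also expresses, was at 25.7, 72.3 and 45.8 FPKM against 60.3, 65.5 and 40.2 FPKM. Reads of the near-identical actin coding sequences could be split between Acta1 and Actc1, so the lower of them is uncertain. Neb, the ruler protein nebulin, was at 22.3, 52.3 and 49.8 FPKM against 35.6, 56.5 and 53.6 FPKM. In both genes wild type values alone spanned over 1.5-fold, and Aim2 KO replicate 1 lay below them.

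The 5 tested thick filament genes were also lowest in Aim2 KO replicate 1. Mylpf, the fast regulatory light chain, was at 969, 1918 and 1881 FPKM in Aim2 KO and 1685, 1873 and 1452 FPKM in wild type, and Myl1, the fast essential light chain, was at 459, 1155 and 995 FPKM against 864, 1119 and 841 FPKM. The slow and cardiac light chains were at the limit of detection, Myl2 with 22 reads and Myl3 with 37 reads over all 6 libraries together. Mybpc1, the slow myosin-binding protein C, which fast fibres also contain, was at 115, 260.1 and 241 FPKM against 209, 313 and 256 FPKM. Its fast relative Mybpc2 was lower and more variable, at 23.7, 77.8 and 35.7 FPKM against 41.2, 30.1 and 70.2 FPKM, and here Aim2 KO replicate 1 was again the lowest library, next to wild type replicate 2. Ttn, the giant elastic protein titin that spans from the Z disc to the M band, was at 6.63, 10.8 and 12.6 FPKM against 8.57, 14.1 and 15.3 FPKM. The M band genes Myom1 and Myom2, which cross-link thick filaments, were at 65.6, 131 and 126 against 105, 129 and 124 FPKM and at 46.1, 95.5 and 80.4 against 73.2, 98.8 and 91.98 FPKM. In these 2 genes the other 2 Aim2 KO libraries lay inside or next to the wild type range. Trim63, a ubiquitin ligase of the M band that is induced in atrophy, was at 9.97, 25.1 and 15.7 FPKM against 16.5, 20.4 and 18.04 FPKM, lowest in Aim2 KO replicate 1.

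At the Z disc all 10 members had negative differences, with a median of -0.34. Tcap, the titin cap, was the most abundant at 833, 1793 and 1648 FPKM against 1821, 2068 and 1303 FPKM. Des, the intermediate filament that links Z discs, was at 254, 511 and 444 FPKM against 429, 576 and 486 FPKM, and Myot, an actin-bundling protein, was at 92.5, 197 and 191 FPKM against 173, 226 and 199 FPKM. The spread within Aim2 KO exceeded the difference between the group means in each of these genes. Ldb3, a PDZ-LIM protein that binds alpha-actinin, was at 47.6, 113 and 95.3 FPKM against 87.4, 115 and 84.5 FPKM. Actn2, the alpha-actinin of all fibres, was at 85.4, 178 and 149 FPKM against 139.7, 211 and 167 FPKM, and the calcineurin-binding Myoz1 of fast fibres was at 145, 321 and 273 FPKM against 272, 297 and 239 FPKM. The slow-fibre form Myoz2 had the smallest unadjusted p of the members, 0.127, at 6.29, 10.4 and 13.6 FPKM against 10.7, 20.4 and 12.8 FPKM (log2 difference -0.51, SE 0.30, limma adjusted p = 0.9998). Wild type replicate 2 held its highest value and the Aim2 KO and wild type ranges overlapped.

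Actn3, Csrp3 and Ky spanned the widest fold ranges at the Z disc over the 6 libraries. Actn3, the alpha-actinin of the fastest fibres, was at 22.7, 82.6 and 56.6 FPKM against 42.4, 31.9 and 92.4 FPKM, a 2.90-fold range within wild type. Csrp3, the muscle LIM protein, which is linked to the response to stretch, was at 12.7, 42.5 and 35.2 FPKM against 21.03, 94.01 and 21.7 FPKM, a 4.47-fold range within wild type that rests on replicate 2. Ky, a Z disc protein whose loss causes kyphoscoliosis in mice, was at 1.97, 11.9 and 9.003 FPKM against 4.88, 8.81 and 6.75 FPKM. The Aim2 KO replicate 1 value of Ky was 22.4% of the median of the other 5 libraries, the lowest such share of the 35 tested members.

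Calcium handling genes were led by the fast pump. Atp2a1, the calcium pump SERCA1 of fast fibres, was at 729, 1319 and 1272 FPKM in Aim2 KO and 1098, 1314 and 1312 FPKM in wild type. Atp2a2, the pump SERCA2 of slow fibres, heart and most non-muscle cells, was at 117, 97.2 and 105 FPKM against 93.8, 105 and 116 FPKM. As with Tpm3, Aim2 KO replicate 1 held the highest value of Atp2a2. Of the release machinery, the ryanodine receptor gene Ryr1 was at 29.1, 50.5 and 49.8 FPKM against 42.1, 55.6 and 55.8 FPKM, and Cacna1s, its voltage sensor, was at 19.1, 38.7 and 41.5 FPKM against 35.5, 42.2 and 38.4 FPKM. The buffer proteins of the store, Casq1 of fast fibres and Casq2 of slow fibres and heart, were at 27.8, 71.8 and 66.9 against 54.8, 66.1 and 58.01 FPKM and at 10.7, 21.4 and 22.3 against 21.02, 20.03 and 16.9 FPKM. In all 4 of these genes the other 2 Aim2 KO libraries lay within the wild type range or above it. Ckm, the muscle creatine kinase that regenerates ATP, was at 747, 1498 and 1460.1 FPKM against 1237, 1321 and 1254 FPKM, with a wild type range of 1.07-fold, the narrowest of the members.

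Pvalb, parvalbumin, the soluble calcium buffer of fast fibres, had the most positive difference of the members. It was at 119.7, 396 and 265 FPKM in Aim2 KO and 236, 168 and 244 FPKM in wild type (log2 difference 0.12, SE 0.40, limma adjusted p = 0.9998). Without Aim2 KO replicate 1 the difference was 0.60 (SE 0.22, limma adjusted p = 0.580), the highest of the members, and without Aim2 KO replicate 2 it was -0.26.

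The low level in Aim2 KO replicate 1 was shared across roles. Its value was the lowest of the 6 libraries for 33 of the 35 tested members (94.3%), where the background was 34.2% of all genes tested, and the exceptions were Tpm3 and Atp2a2. Expressed as a percentage of the median of the other 5 libraries, it ran from 22.4% for Ky to 126% for Tpm3, with a median of 51.3%, beside 95.9% over all genes tested. For 30 members it lay between 40% and 60%, for Ky, Csrp3 and Tnnt1 below 40%, and for Tpm3 and Atp2a2 above 60%. The median share was 52.6% for thin filament, 51.7% for thick filament, 52.2% for M band, 48.1% for Z disc and 50.7% for calcium handling genes. The members' values spread more in Aim2 KO than in wild type, with a median SD of 0.57 against 0.21 on the log2(FPKM + 1) scale, beside 0.18 and 0.14 over all genes tested. These counts describe 1 library, which was singled out after its values were seen, and carry no test.

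**Figure D2:**
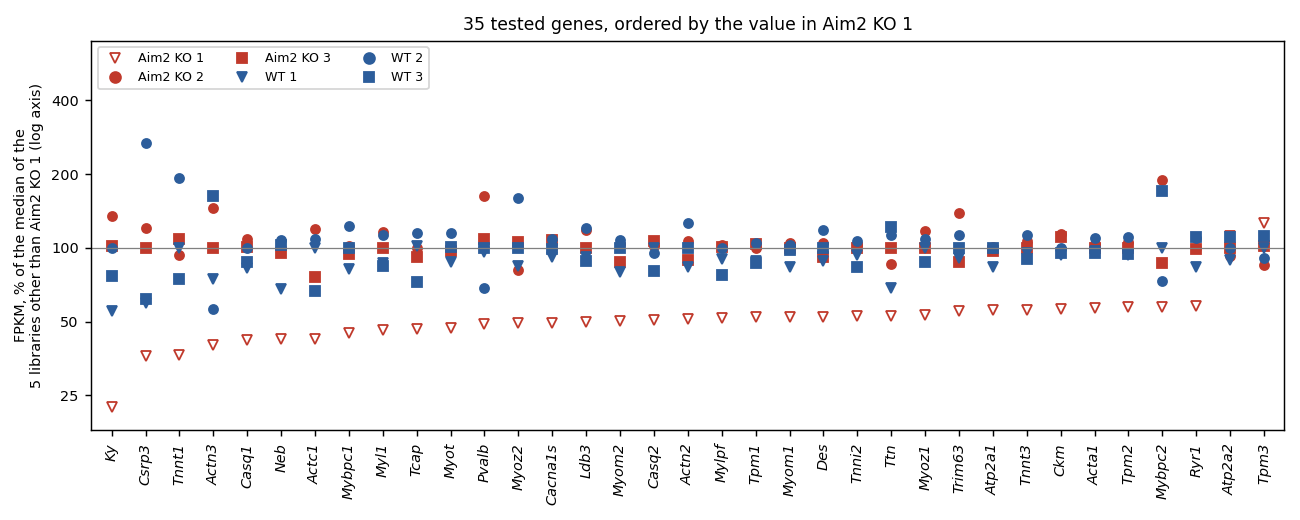
Level of the 35 tested genes in each library as a percentage of the median of the 5 libraries other than Aim2 KO replicate 1, on a log axis, with genes ordered by the value in that library. Its open triangles run from 22.4% for Ky to 126% for Tpm3, and wild type replicate 2 stands high for Csrp3, Tnnt1 and Myoz2.

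The members' promoters were searched for 5 motifs, among them those known from muscle genes. RefSeq windows (GRCm38.p6) matched 31 of the 40 members with 37 windows, and the 250 bases before each start were read on both strands. The CArG box, bound by serum response factor, was found in 6 member windows of 5 genes (16.2%) and in 1.47% of all 32851 windows of that length. In Ldb3 the same site lies in overlapping windows and is counted in each. The MEF2 box was found in 10.8% of member windows, those of Casq2, Myoz2, Pvalb and Ttn, against 2.92% of all windows. The E box CANNTG, bound by MyoD and its relatives, was in 86.5% against 66.2%, the MCAT box CATTCC in 21.6% against 12.6%, and TATAAA in 13.5% against 12.4%. In the member windows no match to one of these motifs overlapped a match to another. A match describes the letters and not a bound site. The stretches around the CArG box are shown to let the 5 genes be compared, on the gene's strand, 5′ to 3′, with the CArG box in capitals and without bases of annotated exons:
Acta1, chr8:123894776-123894895, minus strand: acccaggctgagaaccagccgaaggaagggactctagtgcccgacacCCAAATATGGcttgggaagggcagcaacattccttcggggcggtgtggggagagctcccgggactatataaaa
Actc1, chr2:114052888-114052995, minus strand: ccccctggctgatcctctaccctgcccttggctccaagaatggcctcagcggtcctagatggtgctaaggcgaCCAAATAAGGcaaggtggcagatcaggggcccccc
Ldb3, chr14:34588683-34588801, minus strand: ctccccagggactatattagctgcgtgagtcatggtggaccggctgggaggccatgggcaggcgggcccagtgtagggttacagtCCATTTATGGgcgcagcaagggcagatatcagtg
Myom1, chr17:71019437-71019520, plus strand: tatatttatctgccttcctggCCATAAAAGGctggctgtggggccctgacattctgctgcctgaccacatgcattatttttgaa
Myl3, chr9:110763558-110763645, plus strand: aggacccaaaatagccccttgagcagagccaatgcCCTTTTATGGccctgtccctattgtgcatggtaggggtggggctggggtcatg

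The box began 73 bases before the RefSeq start in Acta1, 47 in Actc1, 35 in Ldb3 (109 before another start), 99 in Myom1 and 85 in Myl3. Those of Actc1, Myom1 and Myl3 lie inside longer gene models of GENCODE M21 but outside their exons, and those of Acta1 and Ldb3 lie upstream of the gene. Acta1, Actc1 and Myom1 were at 56.8%, 42.6% and 52.2% of the other libraries' median in Aim2 KO replicate 1. Myl3 carries the same motif and was at 0 to 0.531 FPKM in all 6 libraries.

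Without Aim2 KO replicate 1 the direction of most members turned. Of the 35 members, 25 had positive and 10 had negative differences, from -0.23 (Myoz2) to 0.60 (Pvalb), with a median of 0.09 beside 0.06 over the 12209 genes tested. By limma 0 members passed, against 0.115% of all genes, and 2 members had an unadjusted p under 0.05, a share of 5.71% where 6.9% of all genes did. These were Pvalb (limma adjusted p = 0.580) and Ky (limma adjusted p = 0.601). In both, the remaining Aim2 KO libraries exceeded each wild type library. The same held for Mylpf, Ckm, Casq1 and Casq2, so 6 members (17.1%) did not overlap and were higher, where the background was 17.8% of all genes, and 0 were lower, where it was 5.04%. The members' share is near the background. Leaving out other libraries gave lower values without overlap for few members. Without wild type replicate 1 these were Myot, Neb, Ryr1 and Ttn (11.4%), where 3.87% of all genes were lower. It was 1 member each (2.86%) without Aim2 KO replicate 2 (Trim63, background 4.95%), Aim2 KO replicate 3 (Myoz2, 4.12%) and wild type replicate 3 (Tcap, 5.22%), and 0 members without wild type replicate 2 (3.77%). None was higher in these 5 settings. Without Aim2 KO replicate 1, all 10 tested members of fast fibres had positive differences (median 0.20), and 2 of 7 slow or cardiac members did (median -0.05). Of the 18 shared members 13 did (median 0.05), and the median over all genes was 0.06. These medians are a description, and the difference between fast and slow members was not tested over all genes. The slow or cardiac members include Tpm3 (-0.11) and Atp2a2 (-0.05), which non-muscle cells also express, and Atp2a2 sets their median. The other negative slow or cardiac members were Tnnt1, Mybpc1 and Myoz2.

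**Figure D3:**
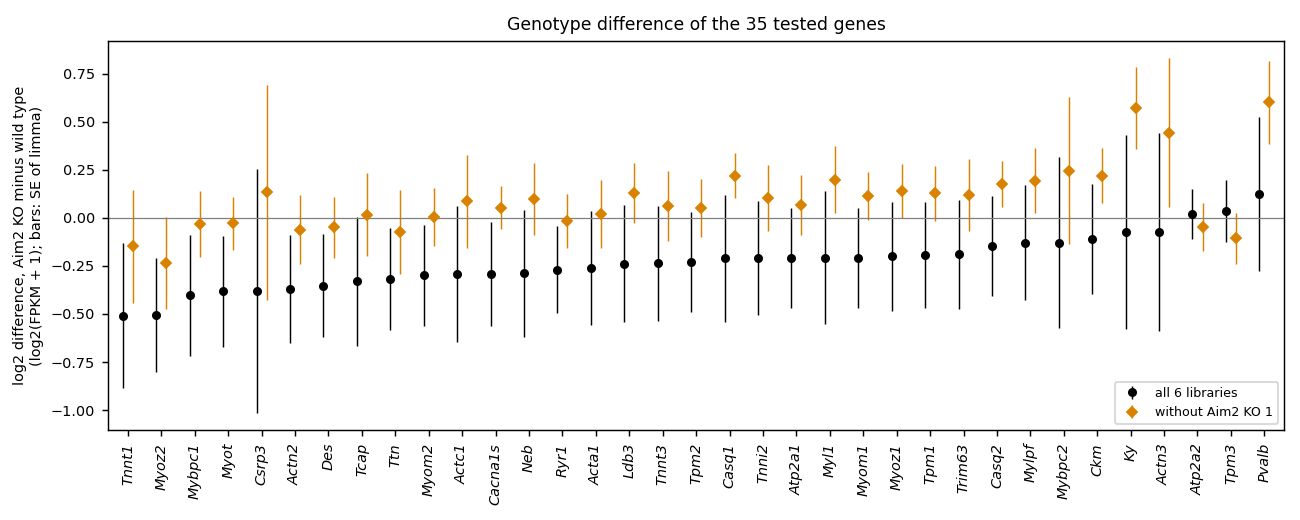
Log2 difference of the 35 tested genes, positive where Aim2 KO is higher, with bars for the SE of limma, from all 6 libraries (black circles) and without Aim2 KO replicate 1 (orange diamonds). With all libraries 32 genes lie below 0, and without that library 25 lie above it.

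Ratios of a fast or skeletal gene to its slow, shared or cardiac counterpart were read within each library. Over 12 fixed pairs the mean log2 ratio was 4.41 ± 0.29 in Aim2 KO and 4.43 ± 0.17 in wild type (SD, n = 3 per group), a difference of -0.01 beside these SDs. The difference was 0.14 without Aim2 KO replicate 1, -0.15 without Aim2 KO replicate 2, -0.10 without wild type replicate 2 and 0.07 without wild type replicate 3, so its sign rests on single libraries. In the 8 pairs with both genes tested it was 2.91 ± 0.26 against 2.83 ± 0.27. The groups overlapped in each of the 12 pairs. The largest ratios were those of Tnni2 to Tnni1 and of Mylpf to Myl2, at 10.3 ± 0.55 against 10.5 ± 0.18 and at 10.3 ± 0.46 against 10.5 ± 0.16, where the pseudocount of 1 FPKM sets the slow level and so makes the ratio follow the fast gene. The same holds for Myl1 to Myl3, and in Tnnc2 to Tnnc1 both genes lay below 1 FPKM. Tpm1 to Tpm3 and Atp2a1 to Atp2a2 stood lowest in Aim2 KO replicate 1, at 1.55 and 2.63, while the other 5 libraries lay at 2.46 to 3.04 and at 3.49 to 3.75. By contrast Acta1 to Actc1 was at 6.30 in that library, inside the 5.72 to 6.43 of the others. Tpm3 and Atp2a2 are also expressed in most non-muscle cells, so the ratios with these genes need not follow fibre type. The part of non-muscle cells in these ratios was not tested.

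**Figure D4:**
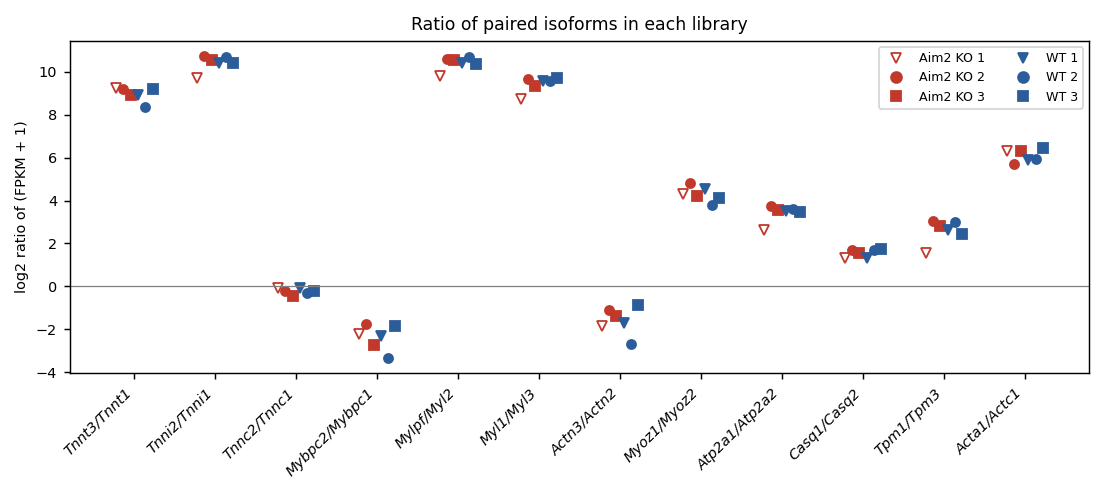
Log2 ratio of (FPKM + 1) for 12 pairs of isoforms, the fast or skeletal gene over its slow, shared or cardiac counterpart, with 1 symbol per library. The groups overlap in every pair; Aim2 KO replicate 1 stands low for Atp2a1/Atp2a2 and Tpm1/Tpm3, and wild type replicate 2 for Actn3/Actn2 and Mybpc2/Mybpc1.

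Among the wild type libraries the members had a median SD of 0.21 on the log2(FPKM + 1) scale, beside 0.14 over all genes tested. Of the 35 tested members, 24 had a wild type range under 1.5-fold and 4 had one over 2-fold, namely Csrp3, Actn3, Tnnt1 and Mybpc2. The median range was 1.29-fold for the 17 members of fast or of slow and cardiac fibres and 1.33-fold for the 18 shared members. In wild type replicate 2 the log2 ratio of Actn3 to Actn2 was -2.69 and that of Mybpc2 to Mybpc1 was -3.34, the lowest of the 6 libraries. In wild type replicate 3 the same ratios were -0.84 and -1.85. In wild type replicate 2 the slow-fibre genes Tnnt1 and Myoz2 were at 9.22 and 20.4 FPKM, their highest values in the study. Mybpc1 was also highest there, at 313 FPKM. The other tested slow or cardiac members, Actc1, Tpm3, Atp2a2 and Casq2, were not highest in that library. Of the myosin heavy chains, Myh1 was at 467, 554 and 693 FPKM in Aim2 KO and 717, 966 and 723 FPKM in wild type, the one tested myosin whose groups did not overlap (log2 difference -0.49, SE 0.21, limma adjusted p = 0.9998). Without Aim2 KO replicate 1 the difference of Myh1 was -0.36. Myh4, the fastest chain, was at 383, 1293 and 798 against 607, 1028 and 1009 FPKM, and Myh7, the slow chain, was at 0.0506 to 0.131 FPKM in all libraries.

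Muscle genes outside the 40 showed the same pattern. In a list of 30 other sarcomere and Z disc genes, all 30 tested had negative differences (median -0.29), 0 passed by limma and 0 had an unadjusted p under 0.05, and all 30 were lowest in Aim2 KO replicate 1. The 4 members with the smallest p were Ankrd2, Xirp1, Trim55 and Synpo2l, with differences of -0.52, -0.42, -0.49 and -0.40. In the list of excitation-contraction and calcium handling genes 24 of 26 were negative (median -0.26), led by Chrna1, a subunit of the acetylcholine receptor, at 2.05 ± 0.8001 against 2.76 ± 0.455 FPKM (SD, n = 3), and Sln, the SERCA inhibitor sarcolipin, at 589 ± 224 against 766 ± 123 FPKM. Of 20 muscle energy genes 19 were negative (median -0.27), among them the glycogen phosphorylase gene Pygm at 265 ± 100.4 against 317 ± 43.2 FPKM. In both of these lists 0 genes passed by limma and 0 had an unadjusted p under 0.05. Without Aim2 KO replicate 1 the medians of the 3 lists were 0.04, 0.07 and 0.08, and 0 genes passed.

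The list of atrophy and denervation genes was more evenly split in sign. Of 13 tested, 5 had positive and 8 had negative differences (median -0.06), 6 were lowest in Aim2 KO replicate 1, and 0 passed by limma, with 1 at an unadjusted p under 0.05. That gene was Ankrd1, a stress-responsive ankyrin repeat protein, at 63.9, 73.7 and 55.1 FPKM against 50.9, 49.5 and 20.7 FPKM (log2 difference 0.75, SE 0.32, limma adjusted p = 0.9998). Each Aim2 KO value exceeded each wild type value, where the background was 4.98% of all genes, and Aim2 KO replicate 1 was not low. Among the rest, Myog, a myogenic transcription factor, was at 1.63, 4.84 and 4.84 FPKM against 4.24, 7.08 and 4.22 FPKM, and Mstn, which encodes the growth inhibitor myostatin, was at 2.805, 7.29 and 6.14 FPKM against 7.75, 5.76 and 7.05 FPKM. Aim2 KO replicate 1 held the lowest value of both.

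When each library was set against its own muscle level, the median difference between genotypes was closer to 0. The muscle level was the mean log2(FPKM + 1) of 25 muscle genes that are not members, and it was 5.51 in Aim2 KO replicate 1 and 6.36 to 6.74 in the other 5 libraries. Relative to it, the median difference of the members was 0.06, 22 of 35 were positive, and 0 passed by limma (smallest adjusted p = 0.735). This scale shifts the median of all genes to 0.31. In Aim2 KO replicate 1, 24 members lay within the range of the other 5 libraries on this scale, 9 lay above and 2 (Mybpc1 and Ky) below. The 9 were Tpm3, Atp2a2 and 7 abundant genes, namely Acta1, Tnnt3, Tnni2, Tpm2, Mylpf, Ckm and Atp2a1. Tpm3 and Atp2a2 stood 1.38 and 1.20 above the mean of the others.

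Markers of other cell types were read beside the muscle genes. Skeletal muscle itself was well marked, with the 10 defining genes outside the members summing to 3306 FPKM in Aim2 KO replicate 1 and 5487 to 7059 FPKM in the other 5 libraries. Of 9 cardiac markers, Myh6, Nppa, Ryr2 and Mybpc3 had means under 0.1 FPKM. The whole cardiac list summed to 36.7 FPKM in Aim2 KO replicate 1 and to 12.3 to 26.0 FPKM in the others. Nppb, which encodes a natriuretic peptide, carried this order at 30.6 FPKM there, and without it the list summed to 6.06 FPKM in that library and to 7.37 to 9.66 FPKM in the others. The 15 keratinocyte markers summed to 51729 FPKM in Aim2 KO replicate 1, above the 37508 to 48074 FPKM of the others. Several stromal lists were low in the same library. The 10 fibroblast markers summed to 134 FPKM there and to 179 to 326 FPKM elsewhere, the 8 endothelial markers to 21.9 and 33.8 to 63.2 FPKM, and the 7 Schwann cell markers to 25.3 and 56.5 to 104 FPKM. The 5 satellite cell and myoblast markers summed to 4.45 and 8.40 to 13.7 FPKM, the 7 adipocyte markers to 71.7 and 110.3 to 204 FPKM, and the 8 smooth muscle markers to 86.0 and 87.7 to 139 FPKM. The 12 leukocyte markers did not follow this order, at 200.5 to 290.0 FPKM in Aim2 KO and 115 to 127 FPKM in wild type. Cd74 took 67.6% of the leukocyte sum, and without it Aim2 KO replicate 1 lay inside the range of the others. All 12 were higher in Aim2 KO, 11 without overlap where the background was 4.98%. By limma 0 passed (smallest adjusted p = 0.504), and 1 passed without Aim2 KO replicate 1. Salivary gland markers summed to 5130 FPKM in Aim2 KO replicate 1, close to the 5114 FPKM of wild type replicate 2, and to 1387 to 3136 FPKM in the remaining 4. Without Amy1, its most abundant gene, the salivary list in Aim2 KO replicate 1 lay inside the range of the others, at 1877 FPKM beside 779.97 to 2121 FPKM. The part of these differences in tissue make-up in the levels of the 40 genes was not tested.

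**Figure D5:**
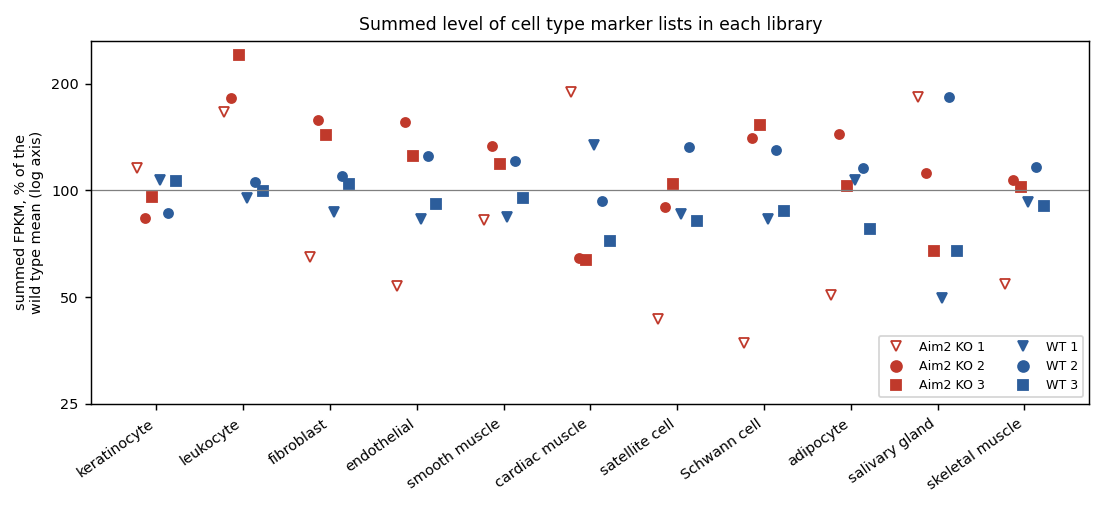
Summed FPKM of cell type marker lists in each library, as a percentage of the wild type mean on a log axis. In Aim2 KO replicate 1 (open triangles) the skeletal muscle, fibroblast, endothelial, satellite cell, Schwann cell and adipocyte lists lie below the other 5 libraries. The smooth muscle list is also lowest there, by a small margin. The keratinocyte list lies above the others, as do the cardiac list, through Nppb, and by a small margin the salivary list, through Amy1.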

How the data were processed

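The authors deposited FPKM values for 35275 genes, 1 column per library, per the file headers. Per the labels' protocols, RNA came from homogenised tongue and libraries were made commercially. The sources used here do not give the aligner, counter, genome build or annotation. Coordinates are the table's, and 26 of the 40 members have identical ones in GENCODE M21 (GRCm38). FPKM times gene length gave whole reads for 100% of values above 0, within 0.01 of a read.

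Log2(FPKM + 1) values of the 12144 genes whose mean reached 1 FPKM were tested, two-sided, with limma 3.58.1 in R 4.3.3 (trend option), with genotype as the only term and Benjamini-Hochberg adjustment. The fit was tested on simulated data with known fold changes. The simulated libraries shared the same spread and none was outlying, so a library like Aim2 KO replicate 1 was not covered. Groups of 3 against 3 allow an exact permutation p of 0.1 at the lowest, so none is given per gene. The sources used here do not say whether same-numbered libraries are paired, and the main fit did not treat them as pairs. Their deviations from the group means correlated at 0.35, 0.46 and 0.03, which does not settle this.

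Members and lists were chosen with earlier results of these data known. All 40 members could be named, and of each other list up to 4 tested genes with the smallest p. Of 28 excitation-contraction genes 27 and of 7 satellite cell genes 5 matched. Ube2c, Myh7 and the choice of Aim2 KO replicate 1 followed from the values. Alternatives were other pseudocounts, filters and scalings, voom on recovered reads with TMM factors, array quality weights, a muscle covariate, a replicate block and leaving out each library.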

Additional observations from a re-analysis of the deposited data

How the results depend on the processing

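With every alternative run, 0 members and 0 genes of the other muscle lists passed. The count over all genes, 1 with the settings of the report, was 0 without a filter, with a filter at 0.1 FPKM, after rescaling to TPM, when scaled on genes outside the muscle lists, relative to the muscle level and with the replicate block. It was 68 with array quality weights, 12 with the muscle level as covariate, and 0 to 14 when 1 library was left out, where 14 came without Aim2 KO replicate 1. With the replicate block 3 members (8.57%) had an unadjusted p under 0.05, where 3.804% of all genes did. The count of members without overlap, 0 with all libraries, was 0 to 6 when 1 library was left out: 6 higher without Aim2 KO replicate 1 (17.8% of all genes were) and 4 lower without wild type replicate 1 (3.87% of all genes were). The median difference of -0.23 was -0.27 to -0.22 under other pseudocounts, scalings and voom, and -0.21 without a filter or with one at 0.1 FPKM, where more members enter. It was 0.01 with array quality weights, 0.03 with the covariate, and -0.45 to 0.09 when 1 library was left out. Signs turned for 26 of 35 members without Aim2 KO replicate 1, for 21 with the covariate, for 19 relative to the muscle level, for 17 with array quality weights, and for at most 4 elsewhere. The smallest adjusted p of a member over all alternatives was 0.253, with the covariate, for Ky. Overlap and isoform ratios have no value under the covariate, weights or block. Depth limits Tnni1, Tnnc1, Tnnc2, Myl2 and Myl3.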

Other observations

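Wild type replicate 2 stood apart for a few Z disc genes that are linked to mechanical load or to slow fibres, a pattern picked after the values were seen and with no test, since it rests on 1 library. Csrp3 was at 94.01 FPKM there and at 12.7 to 42.5 FPKM in the other 5 libraries. Ankrd2, an ankyrin repeat protein of the stretch response, was at 34.6 FPKM there and at 9.64 to 18.8 FPKM elsewhere. Xirp1, an actin-binding protein found at sites of myofibre remodelling, was at 17.5 FPKM and at 6.27 to 11.4 FPKM elsewhere. Ankrd1, a relative of Ankrd2, did not share this, at 49.5 FPKM in that library beside 50.9 FPKM in wild type replicate 1. The muscle level was also highest in wild type replicate 2, at 6.74 beside 5.51 to 6.64 in the others. Other Z disc genes, Des, Actn2, Myot and Tcap, peaked there too. The slow or cardiac members Actc1, Tpm3, Atp2a2 and Casq2 did not.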
